A study of Mus musculus with 4 samples.

Results

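A set of 6 genes that mark immature thymocytes, mainly those at the CD4+CD8+ double-positive stage, were measured in CD8+ T cells made in culture and in CD8+ cells taken from the thymus of the mouse. They are Ptcra, Cd24a, Aqp11, Arpp21, Sox4 and Cd1d1. Every non-control probe whose gene name was one of these symbols, or an earlier symbol of the same gene, was taken, which gave 8 of the 41174 probes on the array and 6 of its 28786 gene names. Arpp21 had 3 probes and each other gene had 1. The genes were picked with earlier results of these arrays known, so their number among the changed genes describes the choice as well as the cells.

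Both kinds of cells were of the C57Bl/6 strain and were untreated. The in vitro-derived cells grew for 35 days from sorted Lin-Sca1+CD117+ marrow cells of mice 6 to 8 weeks old, on OP9-DL1, a marrow stromal line that carries the Notch ligand Delta-like 1, with Flt3 ligand and IL7 in the medium. The thymic cells came from mice 4 to 5 weeks old, and both were sorted as CD8+ with high T cell receptor beta. The gate as the labels give it names no CD4 and no stromal marker. Each kind gave 2 RNA preps. Each of the 4 arrays, which carry 2 dyes, set 1 in vitro prep, in Cy5, against 1 thymic prep, in Cy3, so that every combination was hybridised once. Dye, donor age and the origin of the cells cannot be told apart in this design. No separate animals are named, and the tests therefore measure the spread between preps, which may be technical. In bulk RNA, fewer cells of a type and less RNA per cell cannot be told apart.

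The arrays were alike in depth: of the 43379 non-control spots, Cy3 detected 63.7% to 65.6% and Cy5 66.5% to 70.9% well above background, and no member spot was saturated. All 10 T cell marker genes were tested and detected in both dyes on every array, Cd8a and Cd8b1 among them. Of the genes listed as markers of other cells, 7 of 9 tested stromal genes and 4 of 4 tested gamma delta T cell genes were higher in the in vitro-derived cells. The stromal channel levels summed to 12821 and 15375 (linear scale) in in vitro preps 1 and 2 against 4351 and 4206 in thymic preps 1 and 2, while Dcn and Lum were well above background on at most 1 array in either dye. The gamma delta levels summed to 62312 and 66006 against 2466 and 2459. On the log2 scale the in vitro sums were 15.93 and 16.01, and Tcrg alone was at 15.77 and 15.82. These sums are thus largely 1 gene. Sox13 and Blk were each above background in Cy3 on 1 array, and Il23r, Cd163l1 and Trdc were not tested. B cell genes summed to 3561 to 4091 in vitro against 4408 to 4443 in the thymic preps, with 1 of 9 tested genes higher and 1 lower. Erythroid genes summed to 1078 to 1125 against 1210 to 1238, with 1 of 4 higher and 1 lower, and myeloid genes to 2029 to 2406 against 1838 to 1885, with 4 of 8 higher and 2 lower. The part of these cells in the members' values was not tested.

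A thymocyte first rearranges its T cell receptor beta gene in the double-negative stage, where the beta chain is paired with the invariant pre-T alpha chain, the product of Ptcra. Signals of this pre-T cell receptor and of Notch carry the cell into the double-positive stage, in which Ptcra is switched off and the alpha gene rearranges. Positive selection then yields CD8+ or CD4+ single-positive cells, which lose the surface glycoprotein CD24 as they mature. Cd24a encodes that glycoprotein, and Cd1d1 the MHC-like molecule with which double-positive cells present lipids to developing natural killer T cells. Arpp21 encodes a cyclic AMP-regulated phosphoprotein with an RNA-binding R3H domain, whose long thymic form is called TARPP. Aqp11 encodes an intracellular water channel and Sox4 a transcription factor of the HMG box family.

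The RefSeq promoter table of build GRCm38.p6 held windows for 4 of the 6 genes: 1 start each for Ptcra, Aqp11 and Sox4 and 9 for Arpp21. All lie on the minus strand. The 250 bases before the start are shown for these 4 genes, with that of Arpp21 taken at its outermost start. These stretches hold the letters of binding motifs of factors active in thymocytes. Capitals mark matches on either strand to the E-box letters CAGCTG or their variant CAGGTG, the GATA motif AGATAA, the TCF/LEF motif CTTTGA, the ROR core motif AGGTCA, the MYB letters AACTG or their variant AACGG, the RUNX motif TGTGGT, the RBPJ motif GTGGGAA and the TATA box letters TATAAA.
Ptcra, chr17:46763713-46763962, minus strand: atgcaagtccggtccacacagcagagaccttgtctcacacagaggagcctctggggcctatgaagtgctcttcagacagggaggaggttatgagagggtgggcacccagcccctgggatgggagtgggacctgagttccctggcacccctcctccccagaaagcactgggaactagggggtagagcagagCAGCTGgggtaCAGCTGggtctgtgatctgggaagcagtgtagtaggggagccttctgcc
Aqp11, chr7:97738248-97738497, minus strand: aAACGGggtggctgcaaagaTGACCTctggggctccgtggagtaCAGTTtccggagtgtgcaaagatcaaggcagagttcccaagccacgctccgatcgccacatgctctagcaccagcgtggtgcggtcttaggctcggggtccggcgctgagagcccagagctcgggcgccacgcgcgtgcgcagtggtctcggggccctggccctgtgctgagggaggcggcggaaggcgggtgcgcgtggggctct
Arpp21, chr9:112233723-112233972, minus strand: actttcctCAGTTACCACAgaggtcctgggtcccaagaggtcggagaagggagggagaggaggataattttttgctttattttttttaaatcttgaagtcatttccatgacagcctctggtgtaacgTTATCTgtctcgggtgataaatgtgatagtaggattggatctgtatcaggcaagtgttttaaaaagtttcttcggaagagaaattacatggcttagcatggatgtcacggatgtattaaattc
Sox4, chr13:28953700-28953949, minus strand: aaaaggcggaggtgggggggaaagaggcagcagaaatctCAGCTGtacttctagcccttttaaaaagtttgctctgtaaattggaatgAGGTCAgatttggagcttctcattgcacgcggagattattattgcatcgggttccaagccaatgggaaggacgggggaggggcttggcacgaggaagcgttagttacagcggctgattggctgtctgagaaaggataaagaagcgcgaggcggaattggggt
The Ptcra window held CAGCTG 3 times, beginning 60 and 49 bases before the start and again within the 50 bases after it. That hexamer was present at least 1 time in 16.3% of the 32851 promoter windows of the same 300-base length. The share of windows that hold it 3 times was not counted. In Sox4, CAGCTG began 211 bases and AGGTCA 162 bases before the start. Aqp11 held the MYB variant AACGG at 249 bases, the ROR core at 230 bases and the MYB letters AACTG at 206 bases. It held AACGG again within the 50 bases after the start. At the Arpp21 start the MYB and RUNX letters adjoin in 1 stretch, which begins 242 bases before the start, and a GATA match begins at 123 bases. A TCF/LEF match there spans the start and is not in capitals. That Arpp21 window held no E-box letters, and neither did that of the next start, at base 112233312. Windows of the remaining Arpp21 starts, not shown, held CAGCTG or CAGGTG. The shares of all windows with a match were 20.2% for CAGGTG, 11.2% for AGATAA, 16% for CTTTGA, 16.3% for AGGTCA, 44.8% for AACTG, 17.4% for AACGG, 16.8% for TGTGGT, 6.38% for GTGGGAA and 13.6% for TATAAA. These are matches of letters and not measured binding.

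Ptcra, Cd24a, Aqp11, Arpp21 and Sox4 were higher in the in vitro-derived cells, and Cd1d1 did not pass the test. Thus 5 of 6 members were called higher and none lower at an adjusted p under 0.05 (limma, Benjamini-Hochberg over 19166 genes). Of all genes tested 26.7% were called higher and 52.1% were called in either direction. The median log2 difference, in vitro-derived minus thymic, was 3.31 over the members and 0.03 over all genes tested. By size the members were ordered Arpp21, Aqp11, Cd24a, Ptcra, Sox4 and Cd1d1. Neighbours in that order had array ranges that did not overlap, with the exception of Cd24a and Ptcra. On 2 preps against 2, an exact permutation test could for no single gene give a p below 0.333, and the calls rest on the spread shared across genes.

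**Figure D1:**
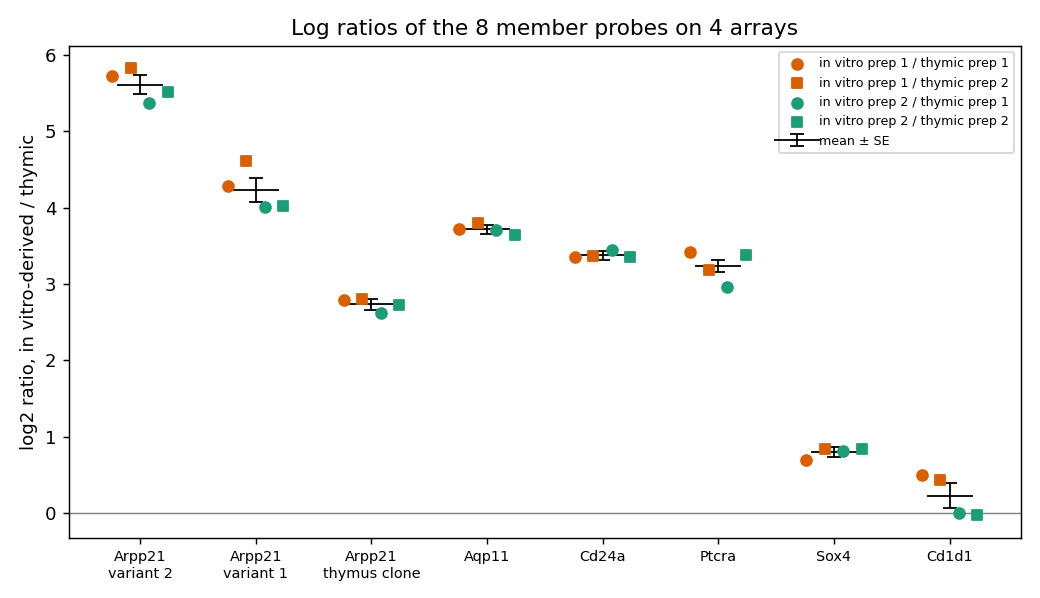
The log2 ratio of in vitro-derived over thymic signal (y axis) is plotted for each of the 8 member probes (x axis) on each of the 4 arrays, with the mean and its standard error as a bar; colour marks the in vitro prep and shape the thymic prep. All points lie above 0 except 1 of the 2 Cd1d1 points of in vitro prep 2, at -0.03, while the Arpp21 variant 2 probe is the highest at 5.38 to 5.83.

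Ptcra, the pre-T alpha chain, had log2 ratios of 3.41 and 3.18 for in vitro prep 1 against thymic preps 1 and 2, and of 2.96 and 3.38 for in vitro prep 2. All 4 arrays were high, and the order of the in vitro preps turned with the thymic prep they were set against. The mean was 3.24 ± 0.07 (SE, n = 2 preps of each kind), or 9.42-fold, with an adjusted p of 2.45e-05 in limma, and 99.7% of the genes tested had a smaller difference. Each prep enters that SE as a mean over 2 arrays, so the turn in order does not count in it. Leaving out 1 array gave an SE of 0.11 to 0.20. Before correction, the Cy5 signal was even across the arrays, at 4573 to 4640. The Cy3 signal was 149, 205, 218 and 170 on the arrays in the order of the ratios given, over local backgrounds of 29 to 34. The lowest ratio thus belonged to the array with the highest Cy3 signal. The thymic signal of Ptcra was well above background on all 4 arrays, so the gene was detected in the sorted thymic cells as well.

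Cd24a, the heat-stable antigen of immature lymphocytes, was the most even of the members. Its log2 ratios were 3.35 and 3.36 for in vitro prep 1 and 3.44 and 3.36 for in vitro prep 2. The mean was 3.38 ± 0.06 (SE, n = 2 preps of each kind), which is 10.4-fold, and the adjusted p in limma was 1.90e-05. The array also carries a probe for LOC621324, a gene model whose array annotation describes it as similar to CD24. It had ratios of 3.30, 3.34, 3.40 and 3.47 and a mean of 3.37 ± 0.07. Near-identical copies of Cd24a can share labelled RNA between probes, so these are not 2 independent measurements.

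Aqp11, the intracellular water channel, had ratios of 3.72 and 3.79 for in vitro prep 1 and 3.71 and 3.64 for prep 2. The 4 values lay close together, and the mean was 3.72 ± 0.06 (SE, n = 2 preps of each kind), 13.1-fold, with an adjusted p of 1.82e-05 in limma.

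Arpp21 had the largest difference of the members and ranked 4 among the 19166 genes from the highest. Its probe for transcript variant 2 gave log2 ratios of 5.73 and 5.83 for in vitro prep 1 and 5.38 and 5.52 for in vitro prep 2. Both values of in vitro prep 1 were above both of prep 2. The mean was 5.61 ± 0.12 (SE, n = 2 preps of each kind), 48.9-fold, with an adjusted p of 2.27e-05 in limma. The probe for transcript variant 1 gave 4.29, 4.61, 4.01 and 4.03 on the arrays in the same order, a mean of 4.23 ± 0.15, or 18.8-fold. The third probe was designed to a thymus cDNA clone and gave 2.79, 2.80, 2.62 and 2.72, a mean of 2.73 ± 0.07. On none of the arrays was its Cy3 spot well above background, so its value is a bound, at least 6.65-fold. The bound sets the mean in vitro level, 9.42, against the thymic level, 6.69, which was higher than the lowest level counted as above background. A dye bias would pass into this bound. The 3 probes had the same direction on every array. The array ranges of the variant 2 and variant 1 probes did not overlap, and the bound of the third probe does not give a size to set beside them. Taking the mean over the 3 probes in place of the brightest gave 4.19, which counts that bound as a value.

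Sox4, the HMG box factor, rose by a smaller amount. Its log2 ratios were 0.70 and 0.84 for in vitro prep 1 and 0.81 and 0.83 for in vitro prep 2, all above 0. The mean was 0.80 ± 0.06 (SE, n = 2 preps of each kind), which is 1.74-fold, with an adjusted p of 0.000498 in limma. It ranked 1653 from the highest, and 91.4% of genes had a smaller difference. With each array centred on its median in place of the intensity-dependent loess, the value was 1.43.

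Cd1d1 split by in vitro prep. Its log2 ratios were 0.50 and 0.43 for in vitro prep 1 and 0.00093 and -0.03 for in vitro prep 2. The mean was 0.23 ± 0.16 (SE, n = 2 preps of each kind), with an adjusted p of 0.307 in limma and a 95% interval of the fit from -0.19 to 0.64. Without in vitro prep 1 the difference was -0.016, and without in vitro prep 2 it was 0.47 with an adjusted p of 0.00569 in limma, where the lone prep is taken to vary like the others. Median centring gave 1.104, which was called.

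Scaling moved the size of every member. Median centring raised the median of all genes from 0.03 to 0.39. Relative to those medians, Ptcra was 3.21 with loess and 3.40 with median centring, Cd24a 3.35 and 3.76, and Aqp11 3.69 and 4.06. Arpp21 was 5.58 and 5.90, Sox4 0.77 and 1.05, and Cd1d1 0.20 and 0.72. With median centring 84.1% of all calls were in the direction of higher, against 51.3% with loess, where 5117 genes were higher and 4862 lower.

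**Figure D2:**
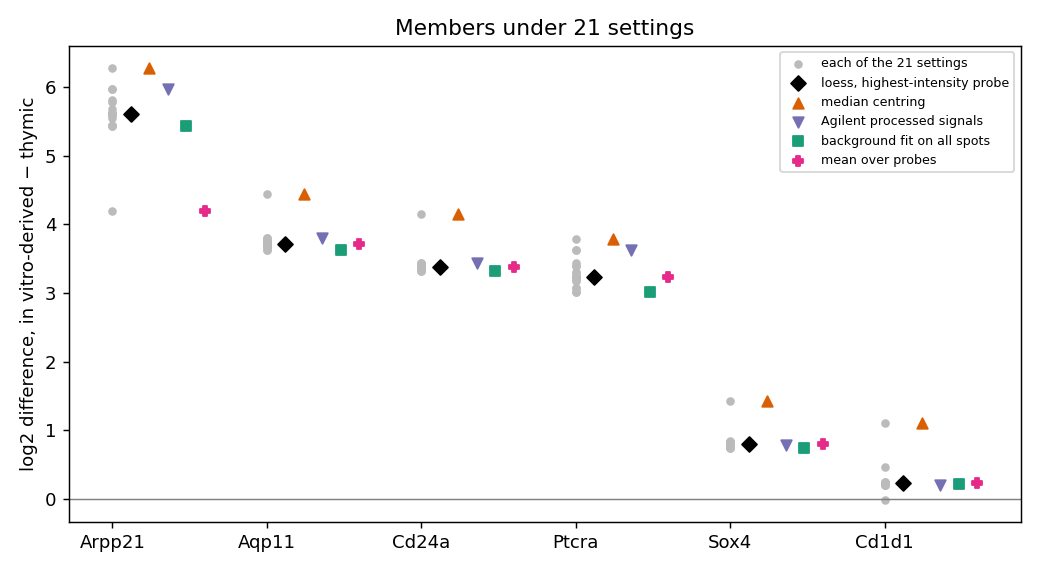
The log2 difference, in vitro-derived minus thymic (y axis), of each member (x axis) is shown as a grey point for each of 21 settings, with 5 of the settings repeated as coloured symbols to the right. Cd24a ranges from 3.32 to 4.15 and Cd1d1 from -0.016 to 1.104, and median centring gives the highest value of each member.

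The levels of each dye show where the members lie in the 2 kinds of cells. On the log2 scale after normalization within and between arrays, Ptcra was at 11.50 and 11.56 in in vitro preps 1 and 2 and at 8.33 and 8.26 in thymic preps 1 and 2. Cd24a was at 14.20 and 14.32 against 10.88 and 10.88. Aqp11 was at 13.96 and 14.07 against 10.30 and 10.31. For these 3 genes the preps of a kind differed far less than the kinds did, and the groups did not overlap. Arpp21 was at 14.42 and 14.14 against 8.72 and 8.62 by its variant 2 probe. Sox4 was at 11.43 and 11.42 against 10.67 and 10.58. Cd1d1 overlapped between the kinds, at 13.83 and 13.42 in vitro against 13.34 and 13.45 in the thymic preps. The lowest level counted as above background was on average 6.12 in Cy5 and 6.26 in Cy3, so all 6 genes lay above it in both kinds by their probe of highest intensity. Levels of different probes are not compared, because probes differ in how they bind and label.

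**Figure D3:**
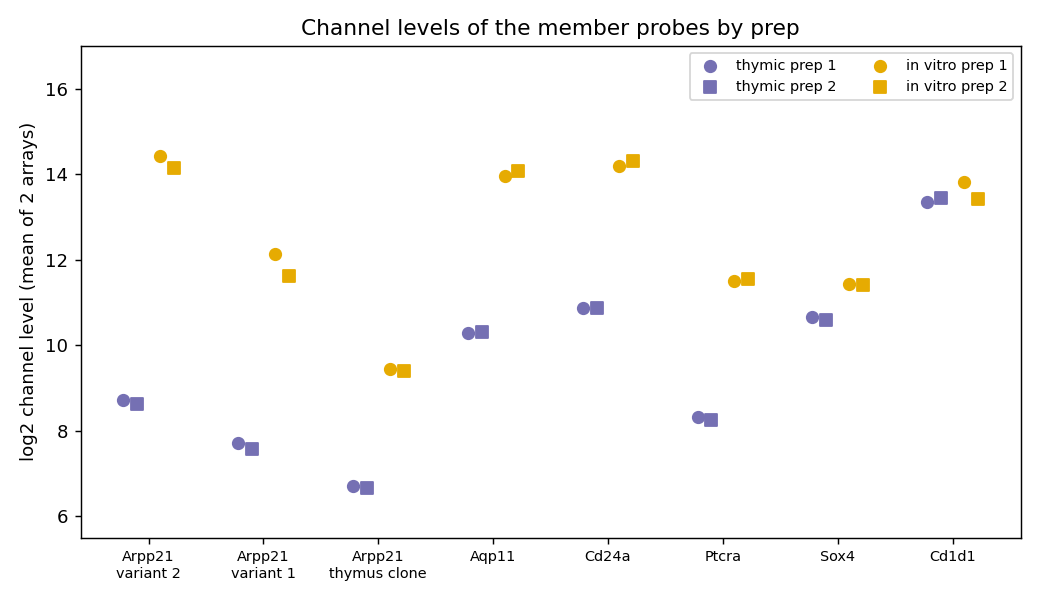
The log2 channel level (y axis) of each member probe (x axis) is plotted for the 2 thymic preps and the 2 in vitro preps, each as the mean of its 2 arrays; heights may be compared within a probe only. In vitro points lie above thymic points for every probe except Cd1d1, where in vitro prep 2 at 13.42 falls between the thymic preps at 13.34 and 13.45.

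The difference between the in vitro preps was measured against each thymic prep in turn. As 1 prep against 1 prep it has no test. Cd1d1 was higher in in vitro prep 1 than in prep 2 by 0.50 against thymic prep 1 and by 0.46 against thymic prep 2, and its mean of 0.48 was larger in size than that of 97.2% of genes tested. Over all genes the difference had an SD of 0.20 and a median absolute size of 0.10. Cd1d2, a close relative of Cd1d1, gave 0.47 and 0.42. The 2 genes are near-identical copies whose probes can share labelled RNA, so the pattern counts as 1 observation.

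Arpp21 was higher in in vitro prep 1 by 0.35 and 0.31 with the variant 2 probe, a mean larger in size than that of 92.0% of genes. The variant 1 probe gave 0.27 and 0.58, and the thymus clone probe 0.17 and 0.08. All 6 values were positive. When the background was fitted on all spots, those that the scanner software marks included, the 3 probes gave means of -0.04, -0.19 and -0.70. Marked spots were still left out of the values in that setting, so the direction of this difference depends on the background fit. Cd1d1 kept 0.46 there. With Agilent's processed signals the variant 2 probe of Arpp21 gave 0.37. Ptcra gave 0.45 and -0.20, with opposite signs. Cd24a gave -0.09 and 0.0042, Sox4 gave -0.12 and 0.0093, and Aqp11 gave 0.01 and 0.15. Ptcra, Cd24a and Sox4 thus changed sign with the thymic prep, and Aqp11 kept its sign at a small size. With the background fitted on all spots the mean of Aqp11 turned from 0.08 to -0.09. Its channel level was also lower in in vitro prep 1, at 13.96, than in prep 2, at 14.07.

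**Figure D4:**
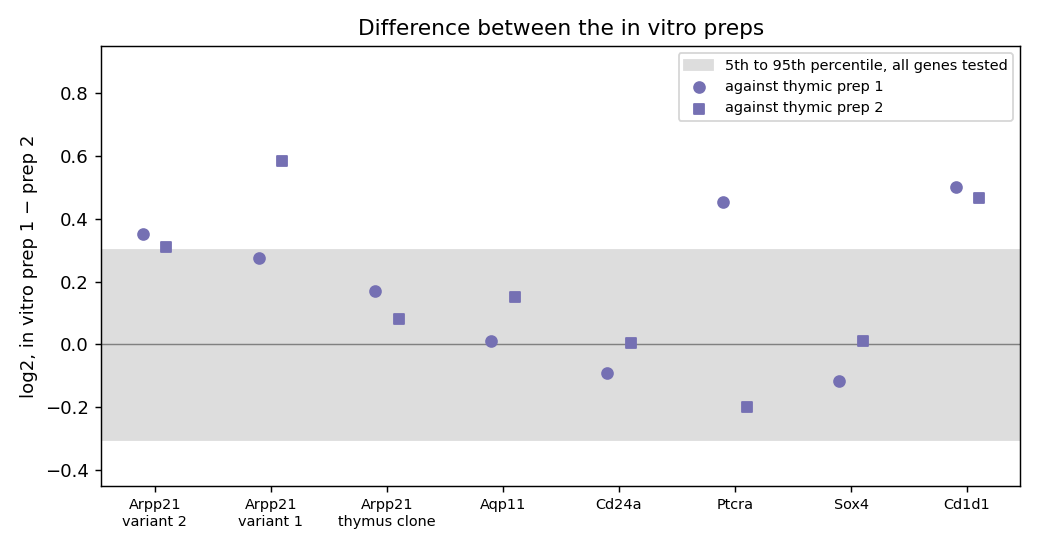
The log2 difference between in vitro preps 1 and 2 (y axis) is shown for each member probe (x axis) as measured against thymic prep 1 (circles) and thymic prep 2 (squares); the grey band spans the 5th to the 95th percentile of the mean of both over all genes tested. Both Cd1d1 points, at 0.50 and 0.46, both Arpp21 variant 2 points, at 0.35 and 0.31, and 1 Arpp21 variant 1 point, at 0.58, lie above the band, as does 1 Ptcra point, and the Ptcra points at 0.45 and -0.20 lie on opposite sides of 0.

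The relatives of the members mostly did not pass the test. Of 19 genes, 14 were tested, 3 were higher and 1 was lower. Among the aquaporins, Aqp3, a water and glycerol channel, was lower at -3.58 ± 0.06 (SE, n = 2 preps per kind), with ratios opposite in sign to those of Aqp11. Aqp2, Aqp4, Aqp6, Aqp8 and Aqp9 had differences of 0.08, 0.06, 0.08, 0.06 and 0.03 and were not called. Another Aqp9 probe was above background in Cy3 alone and gives a bound, at least 1.24-fold lower in vitro. Among the Sox genes, Sox13, a marker of gamma delta cells, was higher by 1.15 and Sox11, a SoxC relative of Sox4, by 0.41. The Sox13 spot was above background in Cy3 on 1 of the 4 arrays, so its thymic level is poorly measured. Sox12, the other SoxC gene, had 0.07 and was not called. Only 1 of the 6 Sox11 probes was detected well enough to be tested, and its call was lost with the background fitted on all spots (adjusted p of 0.0664 in limma) and without thymic prep 2 (0.0902).

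Among genes related to Arpp21, R3hdm1, which shares the R3H domain, was higher by 0.30 and R3hdm2 had 0.04. The R3hdm1 call was lost without thymic prep 1, without thymic prep 2, with Agilent's processed signals and with the background fitted on all spots (adjusted p of 0.164, 0.140, 0.0680 and 0.103 in limma). The mean over all R3hdm1 probes was 0.086 (adjusted p of 0.251 in limma), and its 6 other probes ran from -0.12 to 0.36, with 3 below 0. Arpp19 and Ensa, phosphoproteins that regulate a phosphatase, had -0.14 and 0.15. Neither was called by its main probe, and the other Arpp19 probe gave 0.69. The other Ensa probes gave -0.18 and -0.25, opposite in sign to the main probe. Ensa turned to -0.26 and was called lower with Agilent's processed signals. Cd1d2 was at 0.33 ± 0.15 (SE, n = 2 preps per kind) with an adjusted p of 0.128 in limma, with ratios of 0.54 and 0.57 for in vitro prep 1 and 0.07 and 0.16 for in vitro prep 2. Without in vitro prep 2 it was 0.56 and was called, like Cd1d1. With median centring 10 of the 14 relatives were called higher and 1 lower, where 60.2% of all genes tested were called higher.

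Genes of the double-positive stage were mostly higher. Of 9 tested genes 8 were higher and none lower, with a median log2 difference of 1.92. Dntt, the terminal transferase that adds bases at V(D)J joints, was higher by 6.05 and Rag1, a subunit of the recombinase, by 4.23. Their other probes gave 4.27 and 4.14 for Dntt and 3.32 and 2.46 for Rag1. Cd4, the co-receptor that defines the double-positive stage together with CD8, had 0.15 and was not called. The Cy3 spot of its other probe was above background on none of the arrays, so that probe gives a bound only, at least 1.504-fold higher. Cd4 levels were 7.69 and 7.58 in the in vitro preps and 7.51 and 7.47 in the thymic preps by the main probe. With median centring the main Cd4 probe was at 0.40 and was called.

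In the double-negative list 6 of 9 tested genes were higher and 1 lower, with a median of 0.54. That median was 1.81 with Agilent's processed signals and 1.22 with median centring. In these settings the double-positive list had medians of 1.92 and 2.81. Il2ra, the interleukin 2 receptor alpha chain, was higher by 3.44 and Notch3, a Notch receptor, by 2.16, while Kit, a growth factor receptor of early progenitors, had -0.14 and was not called. Another Il2ra probe gave 2.11, and the remaining probes, above background in Cy5 alone, give bounds of at least 2.87-fold and at least 4.23-fold. Kit also split by in vitro prep, with 0.27 without prep 1 and -0.55 without prep 2, each of which was called. Genes that regulate Ptcra gave 7 of 10 higher and 1 lower, with a median of 0.50. The lower one was Id2, an inhibitor of the E proteins that bind E-boxes, at -2.74, and Notch3 stood at 2.16. Id3, a related inhibitor, had -0.20 and was not called; with median centring it turned to 0.60 and was called higher, and without in vitro prep 2 it was -0.38 and was called lower.

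The partners of the pre-T alpha chain were split with loess. In the pre-T cell receptor and proximal signalling list 2 of 10 genes were higher and 4 lower, with a median of -0.04. Syk, a kinase that acts below the pre-T cell receptor, was higher by 1.52, and Fyn, a Src-family kinase, was lower by a difference of -1.07. Cd3d, a CD3 chain, had 0.02 and was not called. With median centring 9 of these 10 genes were called higher and 1 lower, where 60.2% of all genes were higher. The sign changed with the scaling in 4 of the 10 genes.

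In the CD1d lipid presentation list 5 of 13 genes were higher and 5 lower, with a median of -0.05. Ctss, the protease cathepsin S, was lower at -3.27 and Sh2d1a, the adaptor SAP needed by natural killer T cells, higher at 2.33. Psap, the precursor of the lipid-transfer saposins, had -0.02 and was not called. It was called lower without in vitro prep 1, at -0.25, and higher without in vitro prep 2, at 0.22. Median centring gave 9 called higher and 1 lower, and 6 of the 13 genes changed sign. Markers of natural killer T cells had 3 of 4 tested genes lower and none higher with loess, and 1 lower with median centring. Among all 19166 genes tested, 4862 were lower with loess and 2185 with median centring.

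Genes that rise as single-positive cells mature went the other way from the members. Of 18 tested genes 16 were lower and none higher with loess, with a median of -1.43, and with median centring 11 were lower and 2 higher, with a median of -0.35. Dapl1 was at -3.38 and Cd52, a small surface glycoprotein, at -3.17. Klf2, a transcription factor of mature thymocytes, had 0.09 by its main probe and was not called, whereas its other probe gave -2.23. The T cell markers, of which 6 of 10 were lower and 1 higher with loess, gave 8 higher and none lower with median centring. These lists were picked with earlier results of these arrays known, and their counts only describe them. Of all genes tested, 26.7% were called higher with loess and 60.2% with median centring. The genes called lower were 4862 of 19166 with loess and 2185 with median centring.

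**Figure D5:**
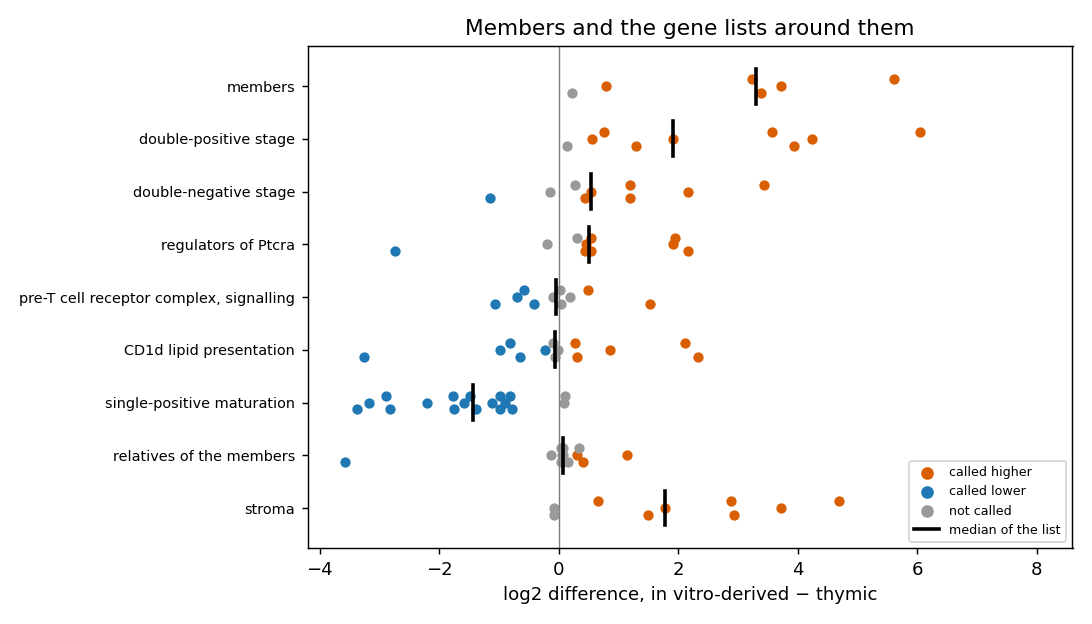
Each point is the log2 difference, in vitro-derived minus thymic (x axis), of a tested gene in the members, in 7 related gene lists and in the stromal markers (y axis), coloured by its call with loess; black bars are medians. The members' median is at 3.31, that of the double-positive list at 1.92 and that of single-positive maturation at -1.43, which is -0.35 with median centring.

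For each called member the 2 genes with the most similar ratios over the 4 arrays were sought among all genes tested, by the root mean square difference of the log2 ratios. Lig4, the DNA ligase of end joining, lay nearest to Ptcra at 0.179, followed by Prnp, the prion protein gene, at 0.191. Cd24a was nearest to Nebl, which encodes nebulette, at 0.0616 and to LOC621324 at 0.0646. Aqp11 lay nearest to Zfp704 at 0.0942 and Gpat3, a glycerol-phosphate acyltransferase, at 0.105. Arpp21 had no gene as close, with Syt13, a synaptotagmin, at 0.343 and Gzma, a cytotoxic granule protease, at 0.395. Sox4 was nearest to BC028528 at 0.0219 and Kifap3, a kinesin-associated protein gene, at 0.0226. The thymic signal of BC028528 was above background on none of the arrays. Other probes of Nebl and Syt13 gave values far from those used here, 0.98 for a Nebl probe (above background in Cy3 on 1 array) and 1.52 for a Syt13 probe. The remaining Nebl probe was above background in Cy3 alone and went the other way, with a bound of at least 1.91-fold lower in vitro. Other probes gave 2.73 for Lig4, 2.44 for Zfp704, 3.14 for Gpat3, and 1.12 and 0.33 for Kifap3. The likeness is over 4 arrays of the same 4 preps and describes the values only.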

How the data were processed

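Each of the 4 arrays carried 1 thymic prep in Cy3 and 1 in vitro-derived prep in Cy5, per the labels, on 1 slide read in 1 scan. The authors deposited scanner files with the linear intensity of each spot; per the file headers the software was Feature Extraction 9.5.1.1 of Agilent. A deposited series table holds log10 ratios, whose scale and direction were found by comparison with the scanner's ratios (correlation across probes at least 0.9999, 99.6% equal within 0.0001, column medians 0). It was used as an alternative.

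Spots that Feature Extraction marks as non-uniform or outlying in either channel (196 to 262 per array) were left out, a choice made with earlier results known. Normexp (offset 50) served for the background and loess, in which control spots had weight 0, for each array (limma 3.58.1, R 4.3.3). A probe was tested if 1 channel or both lay well above background on every array (27242 probes), and the probe of highest mean intensity stood for its gene (19166 genes). The 4 log2 ratios were turned into 4 prep values and tested with lmFit and eBayes (2 residual and 3.04 prior degrees of freedom), with Benjamini-Hochberg adjustment over all genes. Channel levels are log2 values after loess and Aquantile. The script was tested on simulated data in which a far smaller share of genes changed than was called here. No dye effect was simulated, so that test does not bear on the scaling.

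Gene names were updated through RefSeq accessions, which matched for 22951 of 41174 probes. Elsewhere the array's own name was kept. Probe coordinates are not used here, as no label or header names their build.

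The members and lists were chosen with earlier results of these data known. Named were all members with each probe, each tested relative, the 2 genes of largest and the 1 of smallest absolute difference in each pathway list, and the 2 genes nearest to each called member. Marker genes outside this rule were named after their values were seen. Alternatives covered scaling, background, filters, the probe rule, dependence between arrays and leaving out each array or prep.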

Additional observations from a re-analysis of the deposited data

Results flagged for a closer look

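The Cd24a log2 ratios stood out among the members because 1 array lay apart from the other 3. In vitro prep 2 against thymic prep 1 gave 3.44, and the other arrays gave 3.35 to 3.36. The gap to the nearest array was 0.842 of the whole range, above the 95% critical value of Dixon's ratio for 4 samples. For 4 independent values that rule would set apart about 1 in 20 groups. These 4 ratios share preps, so that rate does not hold here and the value serves as a flag only. The rule was applied to all 6 members, and the cause of the gap was not tested. The whole range was 0.09 on the log2 scale, and leaving out any array or prep gave a Cd24a difference of 3.35 to 3.40.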

How the results depend on the processing

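Ptcra, Cd24a, Aqp11, Arpp21 and Sox4 kept their direction and their call in all 20 alternatives. Their log2 differences ran from 3.02 to 3.79, 3.32 to 4.15, 3.63 to 4.45, 4.19 to 6.28 and 0.74 to 1.43. Cd1d1 reached 1.104 with median centring; leaving out 1 array or prep moved it from -0.016, without in vitro prep 1, to 0.47, without in vitro prep 2. It kept its direction and stayed without a call in 17 alternatives. The number of genes called ranged from 5776 to 9991 when 1 array or prep was left out, with 6065 without thymic prep 1 and 5776 without thymic prep 2, against 9979. It was 13724 with median centring, 13248 with the arrays taken as independent, 7404 where the background model used every spot and 9543 from the signals that Agilent's software had processed. Pairing preps of equal number as a replicate block gave 10279 calls and changed no member's call, though it made Cd1d2 a call (adjusted p of 0.0307 in limma); the labels do not say that the numbers pair the preps. The cause of the Cd1d1 changes was not tested.

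The count of members higher in in vitro prep 1 against both thymic preps was 3. It was 2 with median centring, 1 with the background fitted on all spots and 1 with marked spots kept. It was 4 when thymic prep 1 alone was the partner and 5 when thymic prep 2 alone was. The share of all genes tested that meet the same rule was not computed, so the count is a description only. With the background fitted on all spots, genes higher fell from 5117 to 3454 of the 19166 genes tested. They fell from 5 to 3 of 13 in the CD1d list and from 3 to 1 of 14 among the relatives. The pre-T cell receptor list went from 2 to 1 of 10, and the myeloid markers from 4 to 2 of 8. The motif matches in the shown windows of 4 members, counted over 300 bases each, were 13 on both strands and 6 on the gene strand alone, since that count leaves out the opposite strand. For the thymus clone probe of Arpp21, the Cy3 signal near background limits what can be said to a bound. The number of arrays, 4, limits the precision of all values.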
